A study of Mus musculus with 6 samples.

Results

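The 9 genes described here handle carbon dioxide, bicarbonate, protons and ammonium: the ammonium transporters Rhcg and Rhbg, the carbonic anhydrases Car2, Car4, Car12 and Car14, the carbonic anhydrase-related genes Car10 and Car11, and the bicarbonate cotransporter Slc4a4. They were chosen by gene name, in part because Rhcg differed strongly between the fractions, so that their differences, and the counts of probes within the limits of the fit over all probes, are given as a description and not as a test of these genes. The array carries 15 probes for them among 55681 gene probes, and 9 of its 34836 gene names. Expression was measured in 6 samples of cells sorted with magnetic beads from the neonatal cerebellum of wild-type CD1 mice aged P1 to P3 per the labels. The study's methods give a slightly earlier neonatal age and name another background strain for its wild-type mice. A+/G+ cells (n = 3) carry the astrocyte surface antigen ACSA-2, an epitope of the ATPase subunit encoded by Atp1b2, and the glutamate transporter GLAST, encoded by Slc1a3. A-/G+ cells (n = 3) were selected for GLAST after cells with L1CAM, ACSA-2, CD45, PSA-NCAM or Ter119 had been removed, a depletion aimed also at neurons, leukocytes and red blood cells. For A+/G+ cells the study's methods describe enrichment with ACSA-2 beads and no such depletion, so that the effects of fraction and sorting protocol cannot be told apart. Each sample held 50000 cells from pooled cerebella of either sex, and neither fraction carried a transgene or received a treatment.

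Carbonic anhydrases turn carbon dioxide and water into bicarbonate and a proton, and isoforms differ in whether they sit in the cytosol, in mitochondria or with the active site facing the outside of the cell. Glia use them together with bicarbonate cotransporters to buffer the pH around neurons, and choroid plexus epithelium uses them to secrete cerebrospinal fluid. Rh glycoproteins pass ammonia or ammonium through the membrane and are best known from the kidney, while glia remove ammonium by building glutamine.

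Signals are log2 values of the background-subtracted scanner intensity after quantile normalization, so that a difference of 1 is a 2-fold change, and every difference is A+/G+ minus A-/G+. The A-/G+ arrays were dimmer: their 75th percentile of the intensity ran from 56.6 (replicate 1) to 251 (replicate 3), against 332 to 334 in A+/G+. Well above background were 18340 to 24730 probes per A-/G+ array and 26476 to 26655 per A+/G+ array. One slide carried the A+/G+ arrays and another the A-/G+ arrays, and the effects of slide and fraction cannot be told apart. Atp1b2, the ACSA-2 antigen, was higher in A+/G+ by 2.16 (SE 0.18, limma adjusted p = 0.00725), and Slc1a3 did not pass the test (difference -1.19, adjusted p = 0.0733). All 12 astroglial markers were well above background on all 6 arrays. In sorted bulk samples, fewer cells of a type and less RNA per cell cannot be told apart.

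Of the 15 probes, 13 were well above background on at least 3 arrays, 8 on all 6 and 2 on none. The study's methods required a Benjamini-Hochberg adjusted p no higher than 0.05 together with a 4-fold gap between the medians. By both limits, limma called 3 of the 15 probes, those of Rhcg, Car2 and Car10 (the brightest), all with the A+/G+ signal higher, compared with 1.53% of all probes in that direction, 0.399% in the other and 1.93% in either. By the adjusted p alone it called 6 of the 15, again all with the A+/G+ signal higher, compared with 4.65% of all probes in that direction, 4.64% in the other and 9.29% in either. All A+/G+ arrays lay above all A-/G+ arrays for 10 of the 15 (12.7% of all probes), and the opposite held for 1, a Car10 probe at background (24.3% of all probes), so that 11 of the 15 did not overlap, compared with 37.1% of all probes. Since the genes were chosen in part on this comparison, nothing is read from these counts. The median difference of the 9 genes, each by its brightest probe, was 1.44, and that of all probes was -0.04. A shift of each array to its 75th percentile moved the median of all probes to -1.02 and turned the calls among all probes from 851 with A+/G+ higher and 222 with A-/G+ higher to 777 and 2055, with 3 calls among the 15 probes. This shift also moved signals at background: the 2 probes above background on no array, of Car10 and Slc4a4, went from -0.25 and -0.02 to -1.82 and -1.62.

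**Figure D1:**
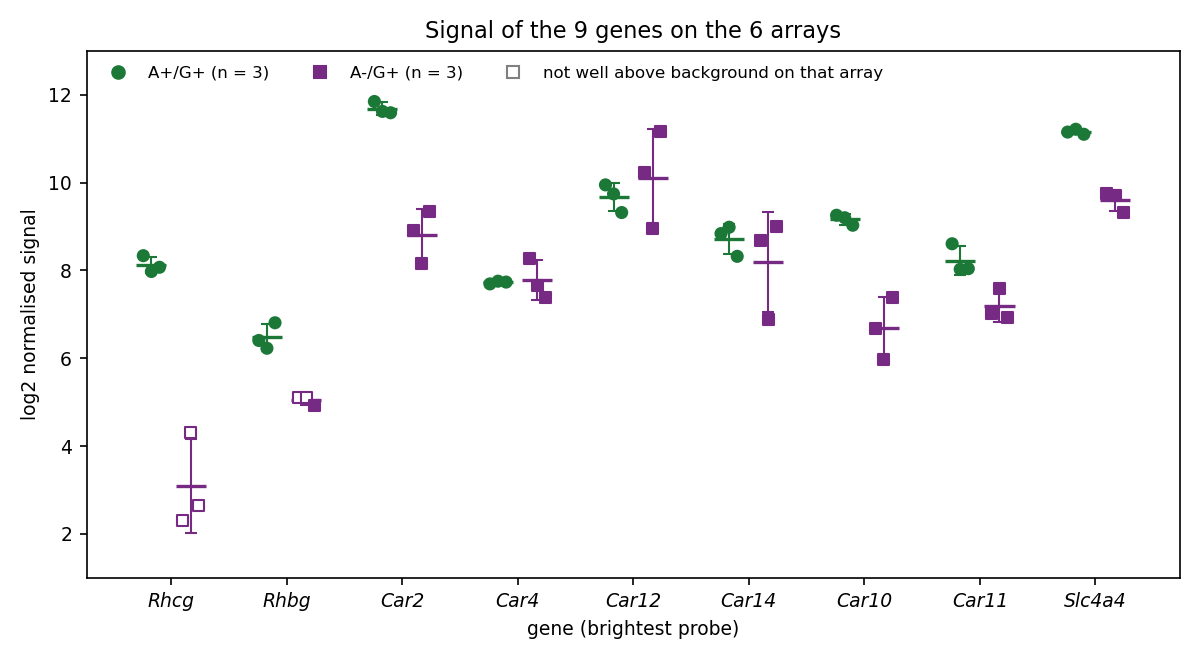
Log2 normalised signal (vertical axis) of the brightest probe of each of the 9 genes (horizontal axis). Each point is 1 array, horizontal lines are means and error bars are SDs (n = 3 per fraction). Rhcg, Rhbg, Car2, Car10, Car11 and Slc4a4 had no overlap between the fractions, Car4, Car12 and Car14 did, and open points mark arrays on which the probe was not well above background.

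Rhcg had the largest measured difference of the 9 genes, against A-/G+ values that all lay at background. Its single probe, a 60-base oligonucleotide at chr7:86738278-86738337 (mm9, minus strand), gave log2 signals of 8.33, 7.97 and 8.07 in A+/G+ and of 2.30, 4.31 and 2.66 in A-/G+. All A+/G+ arrays were well above background and none of the A-/G+ arrays was, so that the A-/G+ values have only an upper limit. Before normalization, the intensities were 534, 434 and 459 against 4.39, 11.1 and 6.74. The means were 8.13 ± 0.19 and 3.09 ± 1.07 (SD, n = 3), and the measured difference was 5.04 (SE 0.57). A lower bound comes from setting the A+/G+ mean against the dimmest signal still well above background on each A-/G+ array (or against Rhcg itself if brighter), and by it Rhcg was at least 9.55-fold higher in the A+/G+ cells. The sizes of the measured difference and of this bound rest on the background step. A normexp correction with an offset of 50 gave a difference of 2.19. This was under the 2.68 of Car2 by the same correction, so that the order of these genes turned.

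The promoter of Rhcg, 250 bases up to the annotated start, is printed because this gene led the choice of genes. The promoters at the 2 annotated starts of Slc4a4, which differ in composition, are printed beside it. Capitals mark GGGCGG, the core of an Sp1 site, and CCAAT, each searched on both strands.
Rhcg, chr7:79617658-79617907, minus strand, GRCm38.p6: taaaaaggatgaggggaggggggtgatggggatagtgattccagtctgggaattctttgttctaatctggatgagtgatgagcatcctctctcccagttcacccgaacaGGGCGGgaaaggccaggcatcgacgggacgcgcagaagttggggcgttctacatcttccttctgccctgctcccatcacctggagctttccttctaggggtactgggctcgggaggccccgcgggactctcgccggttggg
Slc4a4, upstream start, chr5:88887010-88887259, plus strand, GRCm38.p6: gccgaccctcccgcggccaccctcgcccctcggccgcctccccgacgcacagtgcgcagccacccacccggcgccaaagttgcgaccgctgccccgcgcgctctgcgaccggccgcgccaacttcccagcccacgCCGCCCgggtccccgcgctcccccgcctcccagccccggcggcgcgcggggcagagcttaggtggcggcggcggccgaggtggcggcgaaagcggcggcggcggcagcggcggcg
Slc4a4, downstream start, chr5:89027716-89027965, plus strand, GRCm38.p6: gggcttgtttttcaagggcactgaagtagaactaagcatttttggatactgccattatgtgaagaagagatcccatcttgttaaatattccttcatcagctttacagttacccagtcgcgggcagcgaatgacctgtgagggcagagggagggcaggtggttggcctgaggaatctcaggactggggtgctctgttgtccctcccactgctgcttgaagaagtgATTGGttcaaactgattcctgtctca

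The Rhcg promoter had a GC content of 58.4% and held 12 CpG dinucleotides, beside medians of 52.4% and 6 over 32851 RefSeq promoters of the same length. Its GGGCGG began 141 bases before the start (position -141), and 32.7% of all promoters hold that motif. The Slc4a4 promoters differed from each other in composition. The upstream one had a GC content of 82.0% with 44 CpG dinucleotides, and the downstream one 48.8% with 3. The CCAAT of the downstream one, read on the opposite strand as ATTGG, began at position -26, and 33.8% of all promoters hold it. The table had promoters for 7 of the 9 genes, 10 in all, with no entry for Rhbg and Car2. GGGCGG occurred in 5 of these 10, in Rhcg, Car12, Slc4a4 and both starts of Car10, so that it was found in genes with a wide gap between the fractions and in Car12, whose fractions overlapped. TATAAA was found in 0 of the 10 and in 12.4% of all promoters, and TTGGCA, a motif of the NFI factors, in 1 (Car11) and in 12.3% of all promoters. Such a match describes letters only.

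Rhbg, the sister transporter of Rhcg, gave at chr3:88047265-88047324 (mm9) 6.40, 6.23 and 6.81 in A+/G+ and 5.10, 5.11 and 4.92 in A-/G+. The fractions did not overlap, but of the A-/G+ arrays only replicate 3 was well above background. The difference was 1.44 (SE 0.17), with medians 2.47-fold apart, under the 4-fold limit. The normexp correction gave a difference of 0.71. The other Rh family genes on the array, Rhag and Rhd, which encode the Rh proteins of red blood cells, were not well above background on any array. Over the 6 arrays, the probes whose pattern was most like that of Rhcg, among 18479 compared, included those of Abhd6, Folh1 and Fads1 (Pearson's r of 0.998 to 0.999, no test). All 6 arrays enter this measure, and the Rhcg values of the A-/G+ arrays lie at background. Of these genes, Folh1 encodes a carboxypeptidase that releases glutamate, and its probe too was above background on the 3 A+/G+ arrays and on 0 of the A-/G+ arrays.

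Car2 encodes the fast cytosolic carbonic anhydrase, known in the brain from oligodendrocytes and choroid plexus. Its probe at chr3:14900206-14900265 (mm9) gave 11.84, 11.62 and 11.59 in A+/G+ and 8.91, 8.15 and 9.33 in A-/G+. All 6 arrays were well above background and the fractions lay far apart, with the A-/G+ arrays more spread than the A+/G+ arrays. The difference was 2.89 (SE 0.32), and the medians were 6.56-fold apart. It stayed between 2.56 and 3.15 when any 1 array was left out, although leaving out A+/G+ replicate 1, 2 or 3 ended the calls of Rhcg, Car2 and Car10 alike, which leaves 0 of the 15 probes called.

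Part of the oligodendrocyte lineage list differed beside Car2. Of its 12 markers, limma with Benjamini-Hochberg adjustment over all probes found 4 that differed, 3 of them higher in A+/G+, and 8 did not pass. By the methods' test after adjustment, 2 of the 12 passed. Olig1 was higher by 4.43 (adjusted p = 0.00417), Olig2 by 4.23 (adjusted p = 0.00389) and Pdgfra by 1.70 (adjusted p = 0.028), genes of oligodendrocyte precursors, of which Olig2 is also found in astroglial precursors. Mbp, a gene of myelin, was higher in A-/G+ (difference -0.79, adjusted p = 0.0487). The mean log2 signal of the list ran from 8.38 to 8.62 on the A+/G+ arrays and from 7.02 to 8.03 on the A-/G+ arrays, Mog was above background on 1 array and Opalin on none. Markers of red blood cells, a known source of carbonic anhydrase and the target of the Ter119 depletion of A-/G+ cells, ran from 6.64 to 7.11 and from 5.84 to 6.57. Of the 9 red blood cell markers measured, 0 passed by limma or by the methods' test after adjustment and 5 had an unadjusted limma p under 0.05, and Hbb-bh1 and Epb4.2 were among those not well above background on any array. The part of these cell types in the Car2 difference was not tested.

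Car4 encodes a carbonic anhydrase held on the outer face of the membrane by a lipid anchor and known from brain capillaries. Its 2 probes disagreed. The downstream probe, at chr11:84779487-84779546 (mm9), gave 7.69, 7.75 and 7.73 in A+/G+ and 8.27, 7.67 and 7.39 in A-/G+, and the A-/G+ arrays lay on both sides of the A+/G+ arrays (difference -0.05, SE 0.24). The upstream probe, which begins 1820 bases before it, gave 6.82, 6.96 and 7.16 in A+/G+ and 3.57, 3.38 and 6.36 in A-/G+. Here replicate 3 of A-/G+ stood close to the A+/G+ arrays and was the only A-/G+ array well above background. The difference was 2.54 (SE 0.87), and the probe missed the limit on the adjusted p. Its size rests on the A-/G+ values at background: normexp correction gave 0.97, and the medians were 10.5-fold apart with all arrays, 3.99-fold without A-/G+ replicate 2, and 11.2-fold without A-/G+ replicate 3, where the probe came within both limits. The upstream oligonucleotide is printed because it is the one that separated the fractions. It has a GC content of 50.0%, compared with 35.0% for the downstream one and a median of 43.3% over all probes.
Car4 upstream probe, chr11:84777667-84777726, mm9: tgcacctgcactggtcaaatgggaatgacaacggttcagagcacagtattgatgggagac

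The list of endothelial markers, like the upstream Car4 probe, was highest on replicate 3 among the A-/G+ arrays. The same held for all other marker lists except those of Purkinje cells, of meninges and fibroblasts, and of astroglia. The mean log2 signal of the endothelial list was 8.09, 8.22 and 8.46 in A+/G+ and 5.71, 6.23 and 7.98 in A-/G+, so that replicates 1 and 2 of A-/G+ stood in the opposite order to the Car4 probe. Of 10 endothelial markers, 1 passed the test, Cdh5, the cadherin of endothelial junctions (higher in A+/G+ by 1.80, adjusted p = 0.0182). All 10 were above background on at least 1 array of each fraction. The part of endothelial cells in the Car4 signal was not tested.

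Car12 and Car14 encode transmembrane carbonic anhydrases with the active site outside the cell, and Car12 is known from choroid plexus. Neither separated the fractions. Car12, at chr9:66614542-66614601 (mm9), gave 9.95, 9.74 and 9.32 in A+/G+ and 10.22, 8.95 and 11.16 in A-/G+ (difference -0.44, SE 0.60). Car14, at chr3:95701859-95701918 (mm9), gave 8.84, 8.98 and 8.32 in A+/G+ and 8.67, 6.88 and 8.996 in A-/G+ (difference 0.53, SE 0.62). In both, replicate 2 of A-/G+ was the lowest of the 6 arrays and replicate 3 of A-/G+ the highest. With any 1 array left out, the difference ran from -1.02 to 0.08 for Car12 and from -0.12 to 0.94 for Car14, so that neither had a settled sign.

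The choroid plexus list stood in the same order as Car12 on all 6 arrays. Its mean log2 signal was 9.23, 8.99 and 8.49 in A+/G+ and 9.58, 8.26 and 10.22 in A-/G+. Of its 10 genes, 0 passed by limma or by the methods' test after adjustment, and 1 had an unadjusted limma p under 0.05. The transthyretin gene Ttr, the brightest of the list, gave 15.02, 14.55 and 14.33 against 15.62, 14.37 and 15.35. Of the list, 8 genes were above background on all 6 arrays, and Prlr on none of A+/G+. Slc4a5, which encodes a sodium-bicarbonate cotransporter of choroid plexus and is not on the choroid plexus list, showed the same order of arrays, with 7.55, 7.46 and 7.16 in A+/G+ and 7.97, 6.29 and 8.85 in A-/G+. The part of choroid plexus cells in these signals was not tested.

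**Figure D2:**
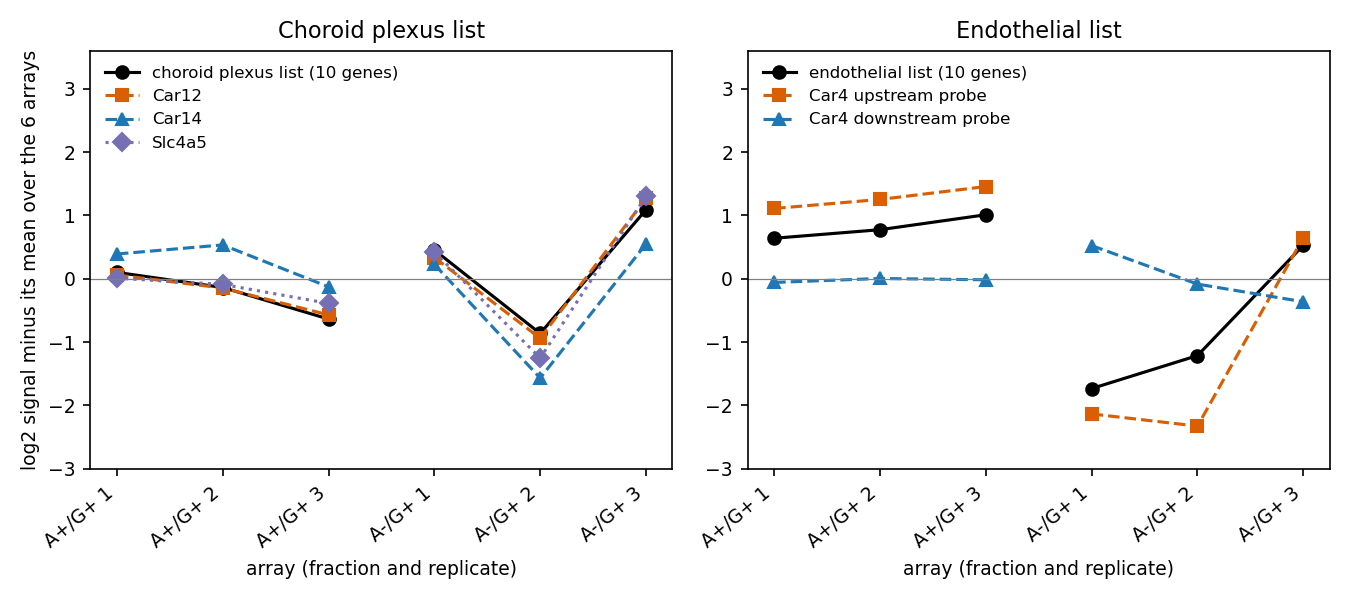
Log2 signal of each array minus the mean over the 6 arrays (vertical axis), by fraction and replicate (horizontal axis), for Car12, Car14 and Slc4a5 beside the mean of 10 choroid plexus markers (left) and for both Car4 probes beside the mean of 10 endothelial markers (right). On the left, all lines are lowest on A-/G+ replicate 2 and highest on A-/G+ replicate 3. On the right, the upstream Car4 probe and the endothelial list are low on A-/G+ replicates 1 and 2 only, and lines join replicates for reading only, since replicates have no order.

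Car10 and Car11 encode carbonic anhydrase-related proteins that lack the enzyme activity, are secreted and bind neurexins at synapses. The brightest Car10 probe, at chr11:93462523-93462582 (mm9), gave 9.25, 9.20 and 9.03 in A+/G+ and 6.68, 5.97 and 7.39 in A-/G+. The fractions did not overlap, and the difference was 2.48 (SE 0.38) with medians 5.74-fold apart. The normexp correction gave 1.93, with medians 3.87-fold apart and so under the 4-fold limit. The probe also missed the limit on the adjusted p by the methods' test and without A-/G+ replicate 1. The next probes in brightness were above background on 1 and 0 of the A-/G+ arrays, so that their differences of 1.90 (SE 0.65) and 1.70 (SE 0.40) were taken against background and shrank to 0.62 and 0.43 with normexp correction. The last was at background on all arrays. The starts of the Car10 probes lie up to 415299 bases apart on chromosome 11. The Car11 probe, at chr7:52958874-52958933 (mm9), gave 8.61, 8.02 and 8.04 against 7.03, 7.59 and 6.92. All A+/G+ arrays lay above all A-/G+ arrays, by 1.04 on average (SE 0.26), but outside the limit on the adjusted p. Car11 came within that limit with the shift to the 75th percentile, normexp correction (difference 0.78) or dim probes left out, but not by the methods' test.

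The array order of Car10, with A+/G+ replicate 1 highest and A-/G+ replicate 2 lowest, was also that of the pan-neuronal list, of the red blood cell list and of Car2, but not of the other Car10 probes. The pan-neuronal list ran from 9.82 to 10.58 on the A+/G+ arrays and from 8.62 to 9.78 on the A-/G+ arrays. Of its 10 markers, 0 passed by limma or by the methods' test after adjustment, 4 had an unadjusted limma p under 0.05 and 8 were above background on all 6 arrays. The list of Purkinje cell markers ran from 8.13 to 9.11 and from 6.08 to 6.51. Of these 10, 6 were higher in A+/G+, among them Pcp2 by 4.99 (adjusted p = 0.00867), and 1 in A-/G+, and Calb1, Skor2 and Foxp2 were on no A-/G+ array above background. By the methods' test after adjustment, 3 of the 10 passed. The part of neurons in the Car10 and Car11 differences was not tested.

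Slc4a4 encodes the electrogenic sodium-bicarbonate cotransporter of astrocytes, NBCe1. Its brightest probe, at chr5:89663826-89663885 (mm9), gave 11.15, 11.21 and 11.10 in A+/G+ and 9.76, 9.71 and 9.32 in A-/G+. The fractions were apart and the spread within each was small, with a difference of 1.56 (SE 0.13) and medians 2.71-fold apart. A probe that shares 48 of its 60 bases with it gave 1.52 (SE 0.12) and is no independent measurement. The third probe has a GC content of 15% and was at background on all 6 arrays. Slc4a4 was within the limit on the adjusted p and under the 4-fold limit. The difference stayed between 1.42 and 1.64 with any 1 array left out and was 1.44 with the normexp correction.

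**Figure D3:**
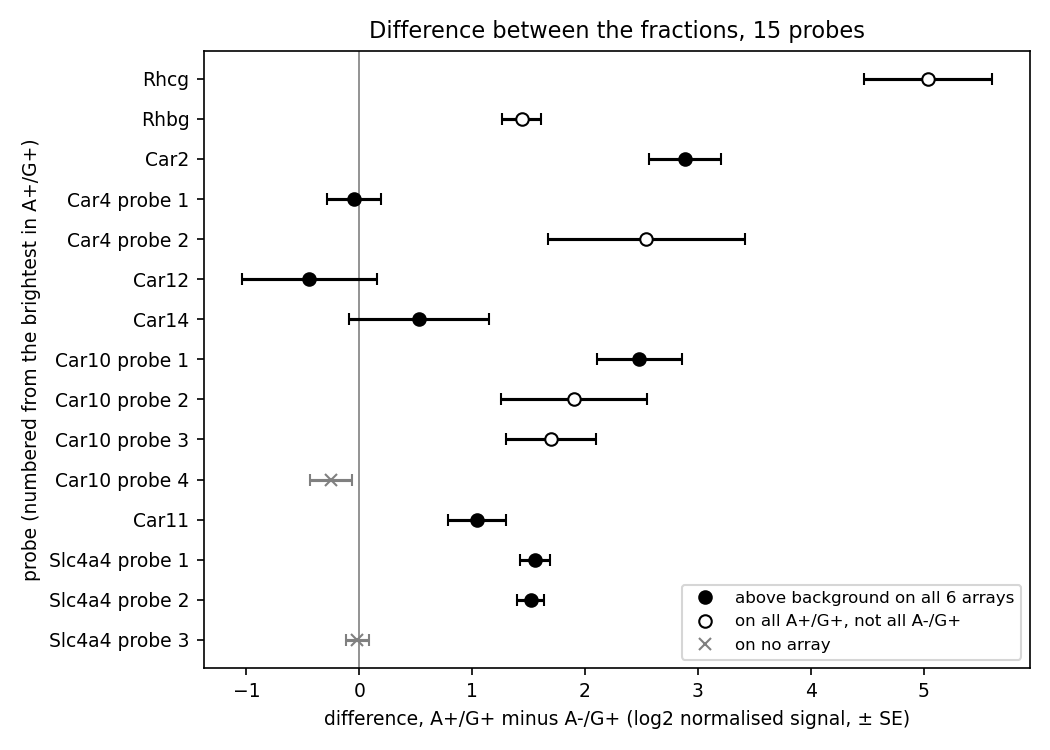
Difference between the fractions, A+/G+ minus A-/G+, in log2 normalised signal (horizontal axis) for the 15 probes (vertical axis). Points are the fitted differences and bars their SE (n = 3 arrays per fraction). Rhcg lies farthest from 0 at 5.04, the Car4 probes lie apart from each other, and crosses mark the probes that were at background on every array.

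Other genes of acid-base and ammonium handling, 65 in all in 7 lists, were tested in the same fit. By the adjusted p, 9 passed and 56 did not. Of the 9, 8 were higher in A+/G+ and 1, Slc9a8, in A-/G+, compared with 5.63% and 4.82% of all gene names by their brightest probe. The median difference of the 65 was 0.21, and 17 were not above background on any array. With the shift to the 75th percentile, 9 had the higher signal in A+/G+ and 10 in A-/G+, and 4 of the 9 genes that had passed no longer did (Atp6v1a, Car5b, Slc9a3r1 and Slc9a8).

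Of 10 further carbonic anhydrases, 3 were higher in A+/G+. Car8, a related protein without enzyme activity that is known from Purkinje cells, gave 6.73, 5.65 and 6.30 in A+/G+ and 2.04, 2.03 and 2.01 in A-/G+, where it was at background. The lower bound of its fold was 2.56, with A+/G+ higher (adjusted p = 0.00498). Its order among the A+/G+ arrays, replicate 1 above 3 above 2, was that of the Purkinje list, but also that of Rhcg, Car11 and the ammonium metabolism list. The part of Purkinje cells was not tested. Car9, a transmembrane isoform induced by low oxygen, gave 7.25, 7.23 and 7.81 against 4.23, 4.25 and 4.298, the latter again at background. For Car9 the lower bound of the fold was 5.54, again with the A+/G+ signal higher (adjusted p = 0.0038). The bounds of Car8 and Car9 hold for the background-subtracted signals only, and their sizes rest on the background step. Normexp correction gave differences of 1.30 for Car8 and 1.48 for Car9. Car5b, a mitochondrial isoform, was above background on 2 A+/G+ arrays only (difference 1.68, adjusted p = 0.0343). Car1 and Car6 were at background on all arrays.

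Of the 9 other members of the SLC4 family of bicarbonate transporters, 0 passed by limma or by the methods' test after adjustment, and 1 had an unadjusted limma p under 0.05. Slc4a3, an anion exchanger and the brightest of them, came closest (difference 0.62, adjusted p = 0.0518). Of 11 sodium/proton exchangers and their scaffolds, 2 passed. Slc9a3r1, the scaffold NHERF1, was 0.44 higher on the log2 scale in A+/G+ (adjusted p = 0.0416), and Slc9a8, an exchanger of the Golgi, was higher in A-/G+ (difference -0.36, adjusted p = 0.047). Of 15 proton pump subunits, 1 passed, Atp6v1a, the catalytic subunit of the vacuolar pump (0.44, adjusted p = 0.0159).

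Ammonium metabolism had 2 of 10 genes higher in A+/G+. Ampd3, an AMP deaminase that releases ammonia, gave 6.50, 6.48 and 6.33 against 2.68, 3.57 and 3.33 at background, at least 2.96-fold higher (adjusted p = 0.00596). This bound too holds for the background-subtracted signals, and normexp correction gave a difference of 1.025. Glud1, the mitochondrial glutamate dehydrogenase, was higher by 1.18 (adjusted p = 0.0206). Glul, the glutamine synthetase that binds ammonium in astrocytes, did not pass (11.60, 11.50 and 11.68 against 12.09, 11.80 and 11.93, adjusted p = 0.114). Of 8 proton sensors, 1 passed, the acid-sensing channel subunit Asic2, with 8.78, 8.33 and 8.27 against 5.35, 4.296 and 6.20 (difference 3.18, adjusted p = 0.0293). Asic2 was well above background on 1 of the A-/G+ arrays, and normexp correction gave 1.88. Car8, Car9 and Ampd3 stayed within the limit with any 1 array left out. The other 6 genes did not: leaving out A+/G+ replicate 1, 2 or 3 brought the adjusted p of each above 0.05, up to 0.167.

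**Figure D4:**
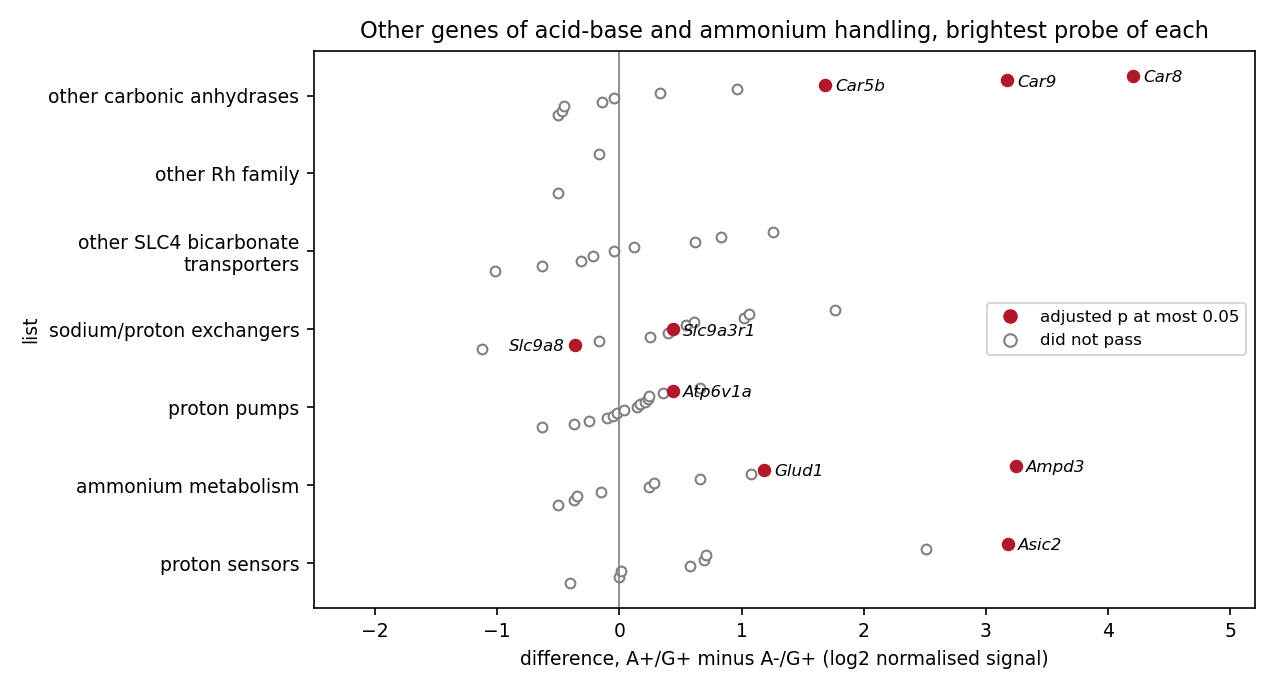
Difference between the fractions, A+/G+ minus A-/G+, in log2 normalised signal (horizontal axis) for 65 genes of acid-base and ammonium handling in 7 lists (vertical axis), each by its brightest probe. Filled points had a limma adjusted p of at most 0.05. Of these, 8 lie to the right of 0 (higher in A+/G+) and 1, Slc9a8, to the left.

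The other marker lists were measured beside the same genes. Of 10 markers of ependymal and ciliated cells, 7 were higher in A+/G+ (list mean from 8.25 to 8.94 against 5.05 to 6.24), with Sntn above background on no array. An unadjusted limma p under 0.05 was found for 9 of them. Of 10 markers of meninges and fibroblasts, 4 were higher in A+/G+ by the adjusted p (12.14 to 12.43 against 9.36 to 10.83), and all 10 were above background on all arrays. All 10 had an unadjusted limma p under 0.05. For each of them all A+/G+ arrays lay above all A-/G+ arrays, compared with 12.7% of all probes. Of 10 markers of granule cell precursors, 2 were higher in A-/G+ (9.67 to 10.02 against 9.24 to 10.43). Of 10 microglial markers, 0 passed by limma or by the methods' test after adjustment and 1 had an unadjusted limma p under 0.05 (list mean from 4.29 to 6.18 against 5.0 to 5.99), and Ptprc, which encodes CD45, was above background on no array. Of 12 astroglial markers, 6 passed, of which 5 were higher in A+/G+ (12.62 to 12.79 against 11.39 to 12.17). By the methods' test after adjustment, 2 ependymal, 2 meningeal, 1 granule cell precursor and 3 astroglial markers passed. The part of these cell types in the differences of Rhcg, Rhbg, Car10, Car11 and Slc4a4 was not tested.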

How the data were processed

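RNA of 6 sorted samples was amplified, labelled with Cy3 and hybridized to 1-colour Agilent mouse arrays. The authors deposited the intensity of each spot as given by Feature Extraction 10.7.3.1, with its background already subtracted, and quantile-normalized log2 values in a table. Here, control spots and spots that the software marked as outliers were removed, the log2 intensities were quantile normalized, and replicate spots were averaged per probe. A+/G+ and A-/G+ were compared with limma 3.58.1 in R 4.3.3 over all 55681 probes with Benjamini-Hochberg adjustment. The fit was tested on simulated data in which 200 probes differed by 3 on the log2 scale. Both limits together recovered 63% of them with 3 false calls, so that differences of that size can be missed. A gene is represented by its brightest probe over the arrays. The 9 genes, the lists and the tests were chosen with earlier results of these data known. Named are all 9 genes, the sorted antigens, pathway genes that passed or were brightest in their list, leading markers, and the genes most like Rhcg, whereas Slc4a5, Glul and other markers were named after their values were seen. Probe positions are on mm9, for which no annotation was used here, and promoters are those of RefSeq on GRCm38.p6, in which all 9 symbols were found. The alternatives comprised normexp correction (offset 50), scaling by the 75th percentile with no floor, the authors' table, no dim probes, other fold limits, limma's trend and robust options, the methods' t-test, a gene's probes averaged, outlier spots included, a replicate block, and 1 array omitted at a time. The number of arrays limits the precision. The labels name the samples biological replicates. The stainings, grafts and single-cell data of the study were not analysed here, and some named items are not reported here.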

Additional observations from a re-analysis of the deposited data

How the results depend on the processing

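The calls at 4-fold numbered 1073 over all probes and 3 among the 15 probes of the 9 genes, and 9 of the 65 pathway genes passed the adjusted p. In the same order, these counts were 2832, 3 and 19 with the shift to the 75th percentile, 282, 2 and 14 with normexp correction, and 608, 2 and 4 with the methods' t-test. With no limit on the fold, 5172 probes and 6 of the 15 passed, and with a 2-fold limit 3137 and 6. With a 4-fold limit, 5 pathway genes passed. With 1 array left out, the counts ran from 417 to 1948, from 0 to 4 and from 3 to 13. When A+/G+ replicate 1, 2 or 3 was left out, all probes gave 417 to 498 calls and the 15 probes 0. The authors' table, the filter on dim probes, the variance with trend and outlier spots kept moved no count by more than 1.5 times.

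The replicate number as a block gave 0, 0 and 0 calls by limma. At an unadjusted p under 0.05, the fit with the block had 11671 probes, 10 of the 15 and 19 pathway genes, compared with 12974, 10 and 22 without it. Arrays of the same number did not deviate together throughout (r of 0.196, 0.113 and -0.114 over 17957 probes), and not every array correlated best with its own number. Deviations from a mean of so few arrays depend on each other, so that these values cannot settle whether the numbers pair the samples. The labels do not state a pairing.

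Averaging all probes of a gene gave differences of 1.25 for Car4, 1.46 for Car10 and 1.02 for Slc4a4, in place of -0.05, 2.48 and 1.56 for the brightest probe, since each has dim probes or probes that disagree. Among the pathway genes that passed, the shift to the 75th percentile brought the adjusted p of Atp6v1a to 0.147, of Car5b to 0.309, of Slc9a3r1 to 0.164 and of Slc9a8 to 0.144. Asic2, Glud1, Slc9a3r1 and Slc9a8 were also outside the limit without A-/G+ replicate 1, Car5b and Slc9a3r1 without replicate 2, and Car5b and Slc9a8 without replicate 3. Among the pathway genes that passed, no difference turned its sign under the alternatives run. The signs of the marker genes and sorted antigens were not followed there. The slide could not be fitted as a block, since no slide held both fractions. Signals near background, such as that of Rhcg in A-/G+, have no measured size, and A-/G+ replicate 1 had the fewest probes above background.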
